A study of Mus musculus with 24 samples.

Results

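The comparison described here is the diet effect in NZO/HiLtJ, an inbred mouse strain whose obesity has many genetic causes. Its members are the 6 libraries labelled NZO/HiLtJ, of 24 in the series, and they were chosen by strain and diet labels alone. Of these, 3 came from females on the high-fat diet, in which fat supplied 45% of the calories and sucrose made up 34% of the weight. The 3 others came from females on the standard diet, in which fat supplied 17% of the calories. All 6 mice were 26 weeks old and had been on their diet since 4 weeks of age, and each library holds poly(A) RNA of the inguinal subcutaneous fat pad of 1 mouse. The other 18 libraries came from C57BL/6J, CAST/EiJ and WSB/EiJ females of the same age on the same diets, and they were used only to ask whether a change differed from that in the other strains. RNA came from fat pad tissue, so adipocytes, macrophages, vessels and any lymph node are measured together. The labels used here give no hour of collection and no fasting state.

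White fat stores triglyceride in adipocytes, which take up glucose and fatty acids under insulin and secrete hormones such as leptin and adiponectin. The macrophages of lean fat are mostly long-lived resident cells that sit along vessels and carry markers such as CD163, LYVE1 and TIM4. In obese fat of mice, macrophages gather around dying adipocytes and take up their lipid. These lipid-associated macrophages carry TREM2, CD9 and CD11c and are rich in lysosomes.

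Many genes passed the test between the diets in NZO/HiLtJ fat, and how many depended on the libraries and covariates in the fit. Of 18263 genes tested, 2948 were higher and 3019 lower on the high-fat diet by edgeR's quasi-likelihood test at a Benjamini-Hochberg adjusted p below 0.05, fitted on the 6 NZO/HiLtJ libraries, which is 16.1% and 16.5% of the genes tested. High-fat and standard libraries did not overlap in 49.4% of genes. Log2 fold changes, always high-fat over standard, had a median of -0.00 over all genes, and 822 of the higher and 758 of the lower genes changed by 1 or more on this scale. Of those 758 lower genes, 398 were not among the genes that are set apart below by a rule on liver and kidney transcripts. A fit over all 24 libraries, whose 8 groups share an estimate of spread, called 591 higher and 388 lower. Without the 6 libraries of other strains in which the epithelial gene Epcam reached 5 CPM, the 18-library fit called 2127 higher and 1985 lower. With the sums of the full liver and kidney lists (79 and 46 genes) as covariates, edgeR called 0 higher and 0 lower in all 24 libraries. At an unadjusted p below 0.05 there were 613 genes. The full liver list includes Cyp2e1, which did not follow the liver set described below. With the stricter sets of 13 liver and 10 kidney genes described below as covariates, the 18-library fit called 800 higher and 601 lower. Of these, 1 was called in the opposite direction by the 6-library fit. The biological coefficient of variation was 15.2% in the 6 NZO/HiLtJ libraries and 40.1% over all 24. Both larger fits without covariates take the fold change from the same 6 libraries. Their directions could therefore hardly differ from those of the 6-library fit, and none did among called genes. Without high-fat replicate 2 the 6-library counts were 1894 higher and 1759 lower, and without high-fat replicate 1 they were 2081 and 1953. Levels are given as normalised CPM, which are counts scaled to library size and by the trimmed mean of M-values. Library totals of the 6 lay between 68178086 and 84009032 counts.

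**Figure D1:**
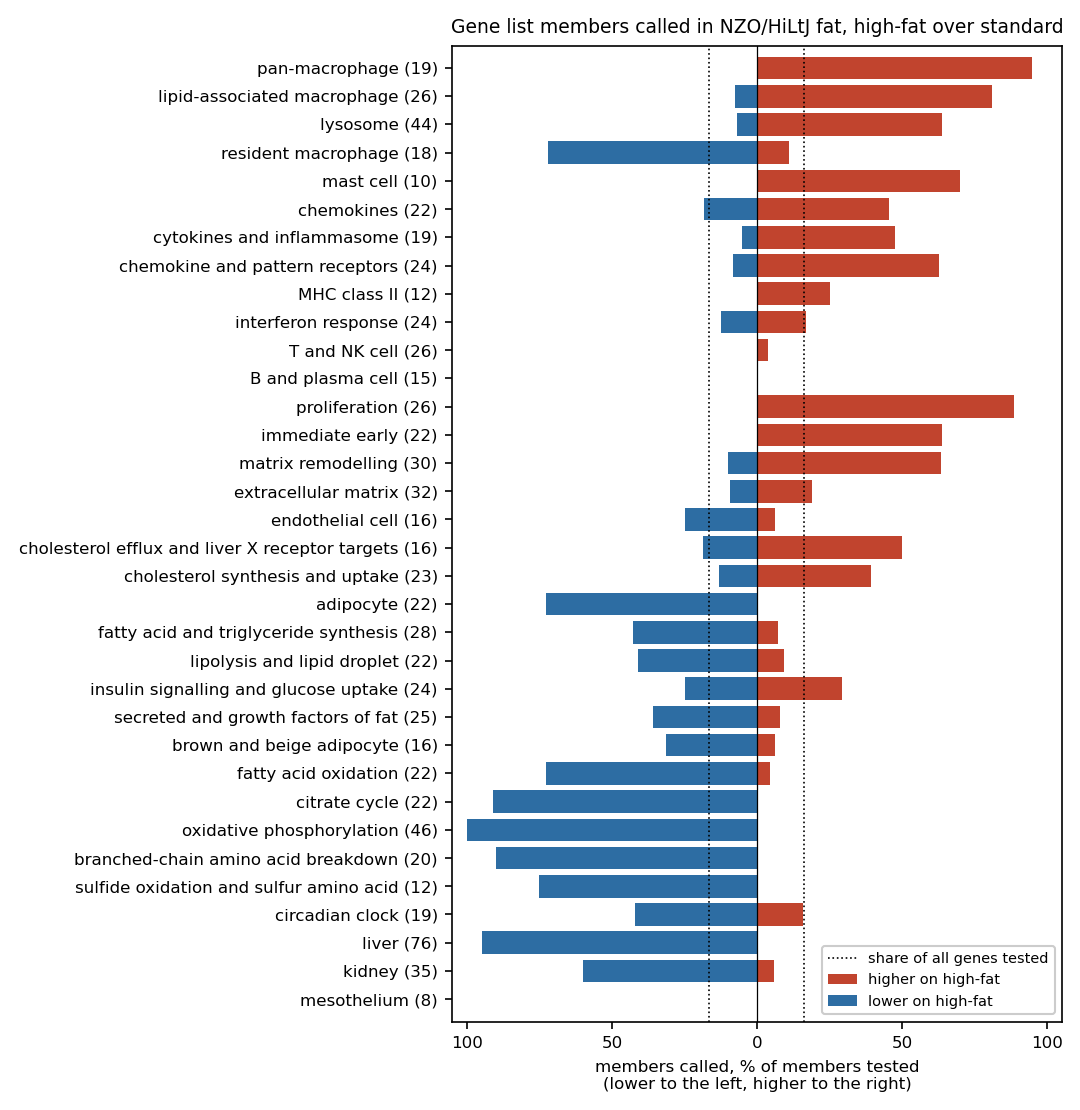
Share of the tested members of each gene list that were called higher on the high-fat diet (red, to the right) or lower (blue, to the left) in NZO/HiLtJ, in percent, with the number tested in brackets. Dotted lines mark the share of all genes called higher (16.1%) and lower (16.5%). Pan-macrophage, lipid-associated macrophage, lysosome and proliferation lists lie to the right, and resident macrophage, mitochondrial, adipocyte and liver lists to the left.

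The libraries were fat, and the standard-diet libraries also held liver and kidney transcripts. The adipocyte list summed to 29779, 26578 and 32397 CPM in the high-fat libraries and 40707, 40693 and 40894 CPM in the standard-diet libraries. Of the markers of other tissues, the epithelium and mammary list summed to 12.2, 18.2 and 20.8 CPM in the high-fat libraries and 18.7, 23.9 and 13.2 CPM in the standard-diet libraries, against 26.7 to 2783 CPM in the other strains, and Epcam stayed at 0.369 CPM or less. A set of 13 liver genes, such as the plasma protein genes Alb, Apoa1 and Ttr, summed to 40.1, 23.2 and 8.05 CPM in the high-fat libraries, against 933, 1643 and 169 CPM in the standard-diet libraries. A set of 10 kidney tubule genes, such as Slc34a1, Umod and Miox, summed to 1.84, 2.32 and 1.98 CPM in the high-fat libraries and 9.38, 174 and 44.5 CPM in the standard-diet libraries. Replicate 2 of the standard diet was highest for both sets, while replicate 1 was second for liver and lowest for kidney. In the other 3 strains the liver set ranged from 9.59 to 925 CPM and the kidney set from 0.155 to 93.9 CPM.

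Lower genes with an uneven level among the standard-diet libraries were set apart by rule. A gene called lower was set apart where it belonged to the liver or kidney list, or where its highest standard-diet library was at least 3 times its lowest. This took out 361 of the 3019 lower genes, 93 of them as list members, and their median log2 fold change was -4.60. Of the 361, 274 had the order of the liver set among the standard-diet libraries (replicate 2, then 1, then 3) and 69 the order of the kidney set (replicate 2, then 3, then 1), and 18 had neither. The rule does not show where a transcript came from, and it also took genes that fat cells use, such as the elongase gene Elovl6. The 2658 lower genes that were kept had a median of -0.48, and 1133 of them were also highest in replicate 2.

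The lowest of the genes set apart are known from liver or kidney. A1bg, a plasma glycoprotein gene, had 0.140, 0.0413 and 0.0864 normalised CPM in the high-fat libraries and 19.2, 33.8 and 2.39 in the standard-diet libraries (log2 fold change -7.67, edgeR adjusted p = 0.00424). Miox, the inositol oxygenase of kidney tubules, had 0.183, 0.358 and 0.130 normalised CPM on the high-fat diet and 1.37, 39.8 and 9.61 on the standard diet (log2 fold change -6.23 ± 1.32, SE, edgeR adjusted p = 0.0121). In both genes the standard-diet libraries lay above the high-fat libraries but differed severalfold among themselves. A1bg had the liver order, and Miox the order of the kidney set, of which it is a member. Cyp2c40, Cyp2c37 and Cyp2a5, all drug- and steroid-metabolising cytochromes of liver, had log2 fold changes of -7.53, -6.21 and -6.13, and Cyp2c genes have close relatives among which reads can be split. Apoa5, an apolipoprotein of liver, the acyltransferase gene Keg1 and the carboxylesterase gene Ces1c had -6.28, -6.26 and -6.17. Of the liver list, 72 of 76 tested members were lower, against 16.5% of all genes tested, and of the kidney list 21 of 35 were lower and 2 higher. Single libraries moved the kidney count, which was 36 lower without standard-diet replicate 1, 13 without high-fat replicate 1 and 11 without high-fat replicate 2. With the summed liver and kidney sets as covariates in the 18-library fit, a setting chosen after the data were seen, 2 liver and 0 kidney list members were lower, and 8 of the 361 genes set apart were. These sums hold genes of the same lists and do not overlap between the NZO/HiLtJ diets, so the loss of these calls cannot test the rule. The covariates also ended most other calls, since 547 of the 2658 other lower genes and 741 of the 2948 higher genes stayed called.

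Cyp2e1, the ethanol-oxidising cytochrome, is a member of the liver list that did not follow the liver set. It had 17.7, 6.58 and 17.4 normalised CPM in the high-fat libraries, against 303, 358 and 413 in the standard-diet libraries (-4.69 ± 0.39, edgeR adjusted p = 0.000848). The 3 standard-diet libraries lay close together, in another order than Alb, and all lay far above the high-fat libraries. The fall was -5.57 with the liver and kidney covariates (edgeR adjusted p = 0.00369). In the other strains Cyp2e1 was at 645 CPM or more in all groups but CAST/EiJ high-fat, and at most at 5419.9 CPM. The CAST/EiJ high-fat libraries ranged from 9.01 to 4093 CPM, and the lowest Adipoq level of that group was 4.75 CPM.

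**Figure D2:**
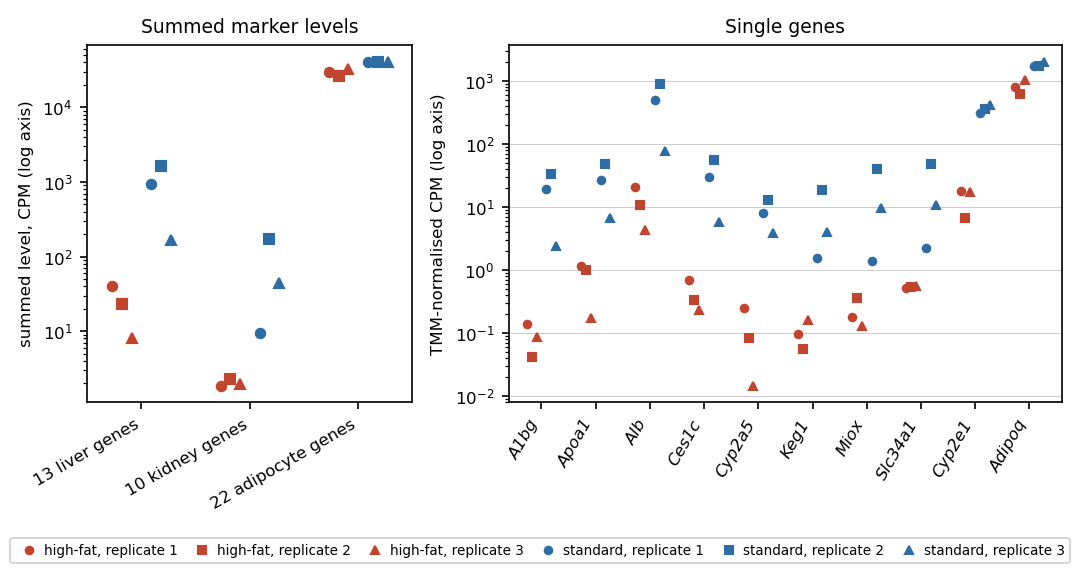
Left, summed levels in CPM (log axis) of 13 liver, 10 kidney and 22 adipocyte genes in each NZO/HiLtJ library; right, normalised CPM (log axis) of single genes, with high-fat libraries in red to the left of standard-diet libraries in blue and 1 marker shape per replicate. Liver and kidney genes differ severalfold among the standard-diet libraries, whereas Cyp2e1 and Adipoq do not.

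Macrophage transcripts were higher in high-fat NZO/HiLtJ fat. Of 19 pan-macrophage genes tested, 18 rose and none fell, against 16.1% of all genes tested that rose, with a median log2 fold change of 1.36. The list summed to 3962, 5122 and 3796 CPM in the high-fat libraries and 1932, 1301 and 1699.6 CPM in the standard-diet libraries, and replicate 2 was the highest of the high-fat and the lowest of the standard-diet libraries. In this bulk tissue, more cells of a type and more RNA per cell cannot be told apart. Msr1, which encodes the scavenger receptor of modified lipoproteins, averaged 86.7 ± 10.2 normalised CPM in the high-fat libraries and 14.96 ± 0.843 in the standard-diet libraries (SD, n = 3 each; log2 fold change 2.54 ± 0.10, edgeR adjusted p = 0.000202). Adgre1, which encodes the F4/80 antigen of mouse macrophages, had 331, 453 and 314 normalised CPM on the high-fat diet and 110.3, 67.8 and 91.4 on the standard diet (2.03 ± 0.21, edgeR adjusted p = 0.00131). The lysosomal glycoprotein gene Cd68 (1.89), the adaptor Tyrobp (1.72) and the NADPH oxidase subunit Cybb (1.66) rose as well. Mertk, a receptor for the uptake of dead cells, was the member that did not pass (-0.21 ± 0.10, edgeR adjusted p = 0.149).

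Lipid-associated macrophage genes were among the largest rises. Of 26 members tested, 21 rose and 2 fell, against 16.1% and 16.5% of all genes, and the median was 1.47. Gpnmb, a lysosomal glycoprotein gene of lipid-laden macrophages, had 622, 900.2 and 558 normalised CPM in the high-fat libraries and 39.1, 23.6 and 47.9 in the standard-diet libraries (4.23 ± 0.31, edgeR adjusted p = 0.000722). Trem2, the lipid-sensing receptor, had 263, 344 and 229 normalised CPM in the high-fat libraries and 46.01, 31.6 and 45.9 in the standard-diet libraries (2.76 ± 0.20, edgeR adjusted p = 0.000722). Atp6v0d2, a proton pump subunit of macrophages and osteoclasts, had 54.2, 74.3 and 47.03 normalised CPM on the high-fat diet and 7.07, 4.55 and 7.36 on the standard diet (3.21 ± 0.24, edgeR adjusted p = 0.000722). In all 3 genes the lowest high-fat library lay severalfold above the highest standard-diet library, and replicate 2 was the highest high-fat and the lowest standard-diet library.

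Other members covered surface receptors, secreted proteins and lipid handling. Itgax, which encodes CD11c, had a log2 fold change of 3.42 ± 0.21 (edgeR adjusted p = 0.000476), and the elastase gene Mmp12 had 2.95 ± 0.25 (edgeR adjusted p = 0.000906). The osteopontin gene Spp1 had 2.71, the galectin-3 gene Lgals3 1.83 and the tetraspanin gene Cd9 2.03. The members that fell were Lpl (-0.24), the lipoprotein lipase, and Fabp4 (-0.33), a fatty acid binding protein, which adipocytes also make in quantity. Ctsl, Apoe and Cd36 did not pass, with log2 fold changes of 0.06, 0.04 and 0.06. In the 24-library fit 14 members were higher and none lower, and the falls of Lpl and Fabp4 were both called only with all 6 libraries, since leaving out any library left 1 or none of them.

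**Figure D3:**
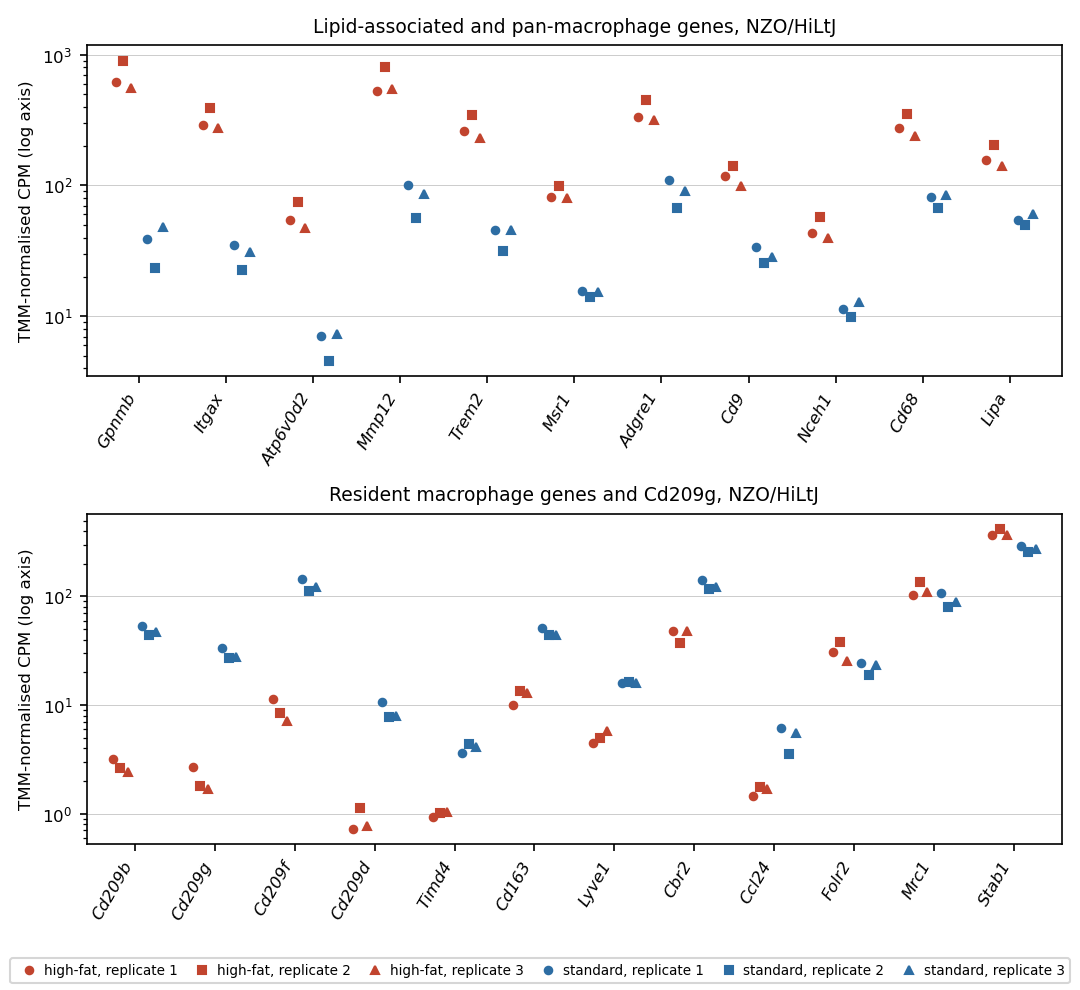
Normalised CPM (log axis) of lipid-associated and pan-macrophage genes (top) and of resident macrophage genes (bottom) in each NZO/HiLtJ library, with high-fat libraries in red to the left of standard-diet libraries in blue. The groups do not overlap in the top panel, where high-fat is higher, nor for Cd209b to Ccl24 in the bottom panel, where high-fat is lower.

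Genes of resident macrophages moved the other way. Of 18 members tested, 13 fell and 2 rose, against 16.5% and 16.1% of all genes, and the median log2 fold change was -1.48. Cd209b, which encodes a C-type lectin that binds carbohydrate on microbes, had 3.16, 2.63 and 2.42 normalised CPM in the high-fat libraries, against 53.1, 44.3 and 46.7 in the standard-diet libraries (-4.13 ± 0.12, edgeR adjusted p = 8.72e-05), the smallest p of all genes tested. Its relative Cd209f had 11.3, 8.40 and 7.06 normalised CPM on the high-fat diet and 143, 113 and 122 on the standard diet (-3.82 ± 0.19, edgeR adjusted p = 0.000288). Cd209d had -3.33, and Cd209g, which is not on the list, had -3.84. The Cd209 genes are close relatives, and reads may be split among them.

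The decline was not limited to the Cd209 family. Cd163, the receptor for haemoglobin bound to haptoglobin, had 9.99, 13.6 and 13.004 normalised CPM in the high-fat libraries and 51.1, 44.2 and 44.5 in the standard-diet libraries (-1.94 ± 0.13, edgeR adjusted p = 0.000561). Lyve1, which encodes a hyaluronan receptor of perivascular macrophages and lymphatic vessels, had 4.47, 4.93 and 5.73 normalised CPM on the high-fat diet and 16.1, 16.2 and 16.1 on the standard diet (-1.68 ± 0.10, edgeR adjusted p = 0.000476). Timd4, a receptor for phosphatidylserine on dying cells, had 0.927, 1.01 and 1.04 normalised CPM on the high-fat diet and 3.62, 4.38 and 4.08 on the standard diet (-2.02 ± 0.13, edgeR adjusted p = 0.000574). In these 3 genes the libraries of each diet lay close together and the diets did not overlap. Cbr2 (-1.51), Fcna (-1.83), Mgl2 (-1.34), Retnla (-1.44), F13a1 (-1.18) and the chemokine gene Ccl24 (-1.64) fell too. The members that rose were Stab1 (0.49), a scavenger receptor gene, and Pf4 (0.38), a chemokine gene, of which 1 was called without standard-diet replicate 2 or 3 or high-fat replicate 1 or 2. Mrc1, which encodes the mannose receptor, and Folr2, a folate receptor gene, had 0.33 and 0.48 and did not pass (edgeR adjusted p = 0.119 and 0.0528). Over all 24 libraries 4 members were lower, and in the 18-library fit 12.

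Genes of the lysosome, the acid compartment that digests what macrophages engulf, rose with the macrophage genes. Of 44 tested, 28 rose and 3 fell, against 16.1% and 16.5% of all genes, with a median of 0.53. The list is not separate from the macrophage lists, with which it shares Cd68, Cd63, Ctsb, Ctsd, Ctsl, Lipa and Atp6v0d2. Lipa, the acid lipase for cholesteryl esters and triglyceride, had 158, 202 and 141 normalised CPM on the high-fat diet and 54.7, 50.3 and 60.6 on the standard diet (1.60 ± 0.14, edgeR adjusted p = 0.000925). Mitf, Tfeb and Tfe3 encode related transcription factors that switch on lysosomal genes, and rose by 1.19, 0.46 and 0.30. The members that fell were the acid sphingomyelinase gene Smpd1 (-0.41) and the proton pump genes Atp6v1h (-0.24) and Atp6v0d1 (-0.20), while the macrophage isoform Atp6v0d2 rose. Lamp1 and Lamp2, which encode the main membrane proteins of all lysosomes, did not pass (0.13 and 0.23). Without high-fat replicate 2 or 3, 1 member fell. With all 24 libraries fitted, 14 members were higher.

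Factors of the Mitf and Tfe family bind the letters CACGTG, which read the same on both strands. RefSeq promoter windows of build GRCm38.p6, which run from 250 bases before a gene's start to 50 after it, were matched by symbol for 34 of the 44 lysosomal genes. CACGTG occurred in 13 of their 42 windows (30.95%), against 7.15% of all 32851 windows in the table and 9.22% of the windows of genes tested. It was in 5 of 29 windows of the members that rose (17.2%), so most lysosomal windows that hold it belonged to members that did not rise. The same letters are bound by clock factors, and they were in 6 of 21 windows of the clock list, 9.68% of windows of all genes called higher and 8.58% of those called lower. The windows of the 3 lysosomal genes that rose with the smallest p among those that hold it are shown 5′ to 3′ on the gene's strand, with CACGTG in capitals. Gla encodes the alpha-galactosidase (1.34 ± 0.13, edgeR adjusted p = 0.00123; chrX:134600956-134601255, minus strand), Ctsa the cathepsin A that protects other lysosomal enzymes (0.89 ± 0.10, edgeR adjusted p = 0.00159; chr2:164833523-164833822, plus strand), and Atp6v1a the catalytic subunit of the proton pump (0.55 ± 0.07, edgeR adjusted p = 0.00262; chr16:44139210-44139509, minus strand).
Gla: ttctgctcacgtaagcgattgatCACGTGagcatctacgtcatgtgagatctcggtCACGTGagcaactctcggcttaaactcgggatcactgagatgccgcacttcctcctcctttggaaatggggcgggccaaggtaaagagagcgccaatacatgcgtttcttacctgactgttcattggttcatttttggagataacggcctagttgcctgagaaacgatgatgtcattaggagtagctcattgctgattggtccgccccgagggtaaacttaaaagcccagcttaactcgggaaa
Ctsa: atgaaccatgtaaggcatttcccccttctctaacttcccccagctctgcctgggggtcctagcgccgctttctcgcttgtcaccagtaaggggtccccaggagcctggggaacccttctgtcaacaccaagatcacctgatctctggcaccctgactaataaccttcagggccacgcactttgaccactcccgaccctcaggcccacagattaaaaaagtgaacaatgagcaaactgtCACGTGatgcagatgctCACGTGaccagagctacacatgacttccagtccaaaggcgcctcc
Atp6v1a: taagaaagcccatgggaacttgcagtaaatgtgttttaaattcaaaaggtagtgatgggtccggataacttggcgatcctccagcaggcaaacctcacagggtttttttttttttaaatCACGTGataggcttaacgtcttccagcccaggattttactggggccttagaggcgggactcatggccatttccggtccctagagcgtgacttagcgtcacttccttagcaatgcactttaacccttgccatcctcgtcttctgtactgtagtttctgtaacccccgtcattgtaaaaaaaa

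Genes of cholesterol storage and efflux rose more often than they fell. Of 16 genes of cholesterol efflux and storage tested, 8 rose and 3 fell, against 16.1% and 16.5% of all genes. Soat1, which esterifies cholesterol, had 25.6, 33.6 and 24.3 normalised CPM in the high-fat libraries and 7.39, 5.91 and 8.29 in the standard-diet libraries (1.95 ± 0.17, edgeR adjusted p = 0.000897). Nceh1, which splits cholesteryl esters (2.03), the exporter gene Abcg1 (0.68) and Npc1, which moves cholesterol out of lysosomes (0.63), rose too. Apoc1 (-1.09), the bile acid enzyme gene Cyp27a1 (-0.42) and the liver X receptor gene Nr1h3 (-0.25) fell. Of 23 genes of cholesterol synthesis and uptake, 9 rose and 3 fell. Among those that rose were the regulator Srebf2 (0.44 ± 0.06, edgeR adjusted p = 0.00307) and its target Insig1 (1.01 ± 0.15, edgeR adjusted p = 0.00375). Tm7sf2 (-0.63) and Ebp (-0.29), which act late in the pathway, were among those that fell. Leaving out 1 library took the lower counts to 1 in most cases (standard-diet replicate 2 or 3 or high-fat replicate 1 or 2 for efflux, standard-diet replicate 1 or 2 or high-fat replicate 2 or 3 for synthesis). In the 24-library fit 4 efflux genes were higher and no synthesis gene passed.

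Genes of multinucleated cells were mixed. Of 13 members of the osteoclast and giant cell list tested, 6 rose, against 16.1% of all genes. The 2 that fell were a share near the 16.5% of all genes. Dcstamp, which is needed for macrophage fusion (2.25 ± 0.36, edgeR adjusted p = 0.00477), the protease gene Ctsk (2.34) and Tnfrsf11a, which encodes the receptor RANK (1.75), rose. Acp5, which encodes the tartrate-resistant acid phosphatase, had 231, 204 and 232 normalised CPM in the high-fat libraries, against 461, 503 and 495 in the standard-diet libraries (-1.13 ± 0.07, edgeR adjusted p = 0.000539). The gelatinase gene Mmp9 had 1.66, 1.75 and 2.49 normalised CPM on the high-fat diet and 10.7, 6.90 and 9.68 on the standard diet (-2.21 ± 0.22, edgeR adjusted p = 0.00126). These 2 genes fell while the other called members rose, with no overlap between the diets.

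Mast cell proteases and receptors were higher, at low levels. Of 10 mast cell genes tested, 7 rose and none fell, and the median was 3.03. Mcpt4, the chymase of connective tissue mast cells, had 15.1, 23.1 and 17.6 normalised CPM in the high-fat libraries and 3.76, 1.41 and 1.55 in the standard-diet libraries (3.06 ± 0.39, edgeR adjusted p = 0.00226). The carboxypeptidase gene Cpa3 had 16.04, 24.1 and 18.02 normalised CPM on the high-fat diet and 3.68, 1.16 and 1.01 on the standard diet (3.32 ± 0.48, edgeR adjusted p = 0.00334). Replicate 1 was the highest of the standard-diet libraries for both, and still lay severalfold below the lowest high-fat library. The tryptase genes Tpsb2 (3.15) and Tpsab1 (3.10) are near-identical and may share reads. Fcer1a, which encodes a chain of the IgE receptor, was at 0.815, 1.36 and 1.01 normalised CPM in the high-fat and 0.153, 0.0734 and 0.0270 in the standard-diet libraries. Kit, Hdc and Gata2, which other cells also express, did not pass (0.18, 0.45 and 0.29). Mrgprb1, a receptor gene of mouse mast cells that is not on the list, had 3.37 ± 0.40 (edgeR adjusted p = 0.00197). Over all 24 libraries 2 of the list were higher.

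Few lymphocyte genes changed. Of 26 T and NK cell genes, 1 rose, a share below the 16.1% of all genes. It was the interleukin-7 receptor gene Il7r (2.48 ± 0.27, edgeR adjusted p = 0.00158). The T cell receptor chain genes Cd3d, Cd3e and Cd3g had -0.00, 0.03 and 0.17 and did not pass. Without standard-diet replicate 1, 7 members of that list rose. Of 15 B and plasma cell genes none passed by edgeR, with 1 at an unadjusted p below 0.05, 1 passing by DESeq2 and 1 by limma-voom. The summed level of that list was 63.5, 55.4 and 66.8 CPM in the high-fat and 97.2, 26.1 and 43.7 CPM in the standard-diet libraries, so replicate 1 of the standard diet stood above the rest. The immunoglobulin segment Igkv6-20 was called higher, but had 1.57, 3.98 and 25.2 normalised CPM in the high-fat libraries and 0.236, 0.0245 and 1.02 in the standard-diet libraries, so 1 high-fat mouse held most of it, and kappa segments have close relatives. With all 24 libraries fitted, the T and NK cell count was 1 as well. Of 12 MHC class II genes 3 rose, against 16.1% of all genes. Among them were the protease gene Ctss (1.84) and the transactivator gene Ciita (0.70), while the chain genes H2-Aa, H2-Ab1 and H2-Eb1 did not pass (0.43, 0.32 and 0.48).

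More chemokine genes rose than fell. Of 22 tested, 10 rose, against 16.1% of all genes, and 4 fell, a share near the 16.5% of all genes. Ccl3, a chemoattractant of monocytes and macrophages, had 3.03, 3.09 and 2.56 normalised CPM in the high-fat libraries and 0.4998, 0.355 and 0.229 in the standard-diet libraries (3.00 ± 0.27, edgeR adjusted p = 0.00101). Ccl2, the main monocyte attractant, had 29.1, 39.8 and 20.003 normalised CPM on the high-fat diet and 11.8, 10.2 and 9.08 on the standard diet (1.52 ± 0.24, edgeR adjusted p = 0.00451). Ccl8, known from resident macrophages, had 6.65, 6.34 and 6.03 normalised CPM in the high-fat libraries and 26.9, 12.2 and 28.6 in the standard-diet libraries (-1.83 ± 0.30, edgeR adjusted p = 0.00499). Cxcl9 and Ccl12 also fell (-0.45 and -0.61). Of the receptors, Cx3cr1 (1.66) and the pattern receptors Tlr13 (2.24) and Tlr8 (1.72) were among 15 of 24 that rose, and Clec4n (-1.02) and Ccr1 (-0.71) fell. Without high-fat replicate 2, 2 chemokines fell, and no receptor fell without standard-diet replicate 1 or 3 or high-fat replicate 1. In the 24-library fit 2 chemokines and 6 receptors were higher, and none lower.

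Tnf and Il1b, the best known inflammatory cytokines of obese fat, did not pass. Tnf had 2.91, 2.98 and 2.15 normalised CPM in the high-fat libraries and 1.89, 1.28 and 2.08 in the standard-diet libraries (0.61 ± 0.22, edgeR adjusted p = 0.0725), and Il1b had 0.32 ± 0.29 (edgeR adjusted p = 0.437). Of 19 cytokine and inflammasome genes tested 9 rose, led by Il1rn, which encodes the interleukin-1 receptor antagonist (1.76 ± 0.17, edgeR adjusted p = 0.00122), and Tgfb1 (0.63 ± 0.08, edgeR adjusted p = 0.00241). The inflammasome genes Nlrc4 (1.28), Aim2 (0.99), Pycard (1.08) and Casp1 (0.55) rose as well. Il34, a ligand of the macrophage growth factor receptor, fell (-0.42 ± 0.06, edgeR adjusted p = 0.00385). Interferon response genes passed about as often as all genes or less, with 4 of 24 higher, against 16.1% of all genes, all of the Oas family (Oasl1 1.46, Oas1a 0.92), and 3 lower (Gbp2 -0.34, Gbp3 -0.60 and Bst2 -0.33), against 16.5%. The interferon count was 5 lower without standard-diet replicate 2 and 1 lower without any other library. Over all 24 libraries 1 cytokine gene was higher and no interferon gene passed.

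Adipocyte genes were lower on the high-fat diet. Of 22 tested, 16 fell and none rose, with a median of -0.54. Cfd, which encodes the complement protease adipsin, had 226, 145 and 299 normalised CPM in the high-fat libraries and 772, 892 and 1073 in the standard-diet libraries (-2.03 ± 0.26, edgeR adjusted p = 0.00237). Car3, a carbonic anhydrase abundant in mouse fat, had 1967, 1309 and 2834 normalised CPM on the high-fat diet and 6079, 6473 and 6214 on the standard diet (-1.62 ± 0.25, edgeR adjusted p = 0.00414). Adipoq, the adiponectin gene, fell by 1.16 on the log2 scale (edgeR adjusted p = 0.00399), and Slc2a4, which encodes the insulin-responsive glucose transporter GLUT4, had -1.05 ± 0.15 (edgeR adjusted p = 0.00334). The fat cell regulator Pparg had -0.52 and the lipid droplet gene Cidec -0.62. High-fat replicate 2 was the lowest library for Cfd, Car3, Adipoq and Slc2a4 and the highest for the macrophage genes above, and the part of a shift in cell types in these falls was not tested.

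Leptin did not follow. Lep had 1454, 1448 and 1338 normalised CPM in the high-fat libraries and 1422, 1521 and 1260.1 in the standard-diet libraries (0.01 ± 0.08, edgeR adjusted p = 0.921), and the diets overlapped. Cd36, the fatty acid translocase gene (0.06 ± 0.06), Acsl1 (-0.06 ± 0.10) and Trarg1 (0.23 ± 0.10) did not pass either. Among secreted factors 9 of 25 fell, against 16.5% of all genes. They included the resistin gene Retn (-1.04), the retinol carrier gene Rbp4 (-1.08), the Wnt inhibitor gene Sfrp5 (-1.20) and Bmp3 (-1.12). Saa3, an acute-phase gene of fat and macrophages, rose (1.21 ± 0.27, edgeR adjusted p = 0.0146), and Mest, a gene linked to fat expansion in mice, did not pass (0.03).

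Several genes for making fat from sugar fell, while stearoyl desaturases rose, in the 6-library fit. Of 28 genes of fatty acid and triglyceride synthesis, 12 fell and 2 rose, against 16.5% and 16.1% of all genes, and the others did not pass. The share that rose was below that of all genes. The 18-library fit called 4 lower and 1 higher, and with the liver and kidney covariates 1 and 0, while none passed with all 24 libraries fitted. Thrsp, a nuclear inducer of lipogenesis, had 28.8, 27.2 and 35.3 normalised CPM in the high-fat libraries, against 150.1, 382 and 217 in the standard-diet libraries (-3.04 ± 0.34, edgeR adjusted p = 0.00162). Fasn, the fatty acid synthase, had 1638, 1262 and 1194 normalised CPM on the high-fat diet and 2135, 4654 and 3225 on the standard diet (-1.29 ± 0.27, edgeR adjusted p = 0.0119). Acly, which supplies cytosolic acetyl-CoA, had -1.39 ± 0.27 (edgeR adjusted p = 0.00932), and Mlxipl, which encodes the glucose sensor ChREBP, had -1.01 ± 0.19 (edgeR adjusted p = 0.00777). In all 4 genes standard-diet replicate 2 was the highest library and replicate 1 the lowest of its diet. The elongase gene Elovl6 (-2.08) had the same order and was among the genes set apart by the spread of its standard-diet libraries. Without high-fat replicate 2 the list counted 7 lower. Scd1, the main stearoyl desaturase, had 12688, 9249 and 14059 normalised CPM in the high-fat libraries and 5778, 8483 and 7408 in the standard-diet libraries (0.73 ± 0.19, edgeR adjusted p = 0.024). Scd2 had 564, 485 and 447 normalised CPM on the high-fat diet and 194, 334 and 243 on the standard diet (0.96 ± 0.19, edgeR adjusted p = 0.0104), and the desaturases are related enough to share reads. Without standard-diet replicate 1 or 3 or high-fat replicate 1, 1 of the 2 passed. Elovl3, an elongase gene of brown fat and skin, had 1.54 ± 0.61 and did not pass (edgeR adjusted p = 0.0938).

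Lipases were lower, while 2 other genes of the lipid droplet were higher. Of 22 genes of lipolysis and the lipid droplet, 9 fell and 2 rose, against 16.5% and 16.1% of all genes. The share that rose was below that of all genes. Among those that fell were the lipase genes Pnpla2 (-0.60), Lipe (-0.58) and Mgll (-0.42) and the droplet coat gene Plin1 (-0.50). Plin2, the droplet coat of macrophages and many other cells, had 1439.7, 1583 and 1048 normalised CPM in the high-fat libraries and 696, 699 and 592 in the standard-diet libraries (1.03 ± 0.16, edgeR adjusted p = 0.00369). Hilpda, which blocks lipolysis in hypoxic or lipid-loaded cells, had 15.4, 15.9 and 17.5 normalised CPM on the high-fat diet and 8.12, 7.76 and 8.49 on the standard diet (1.00 ± 0.08, edgeR adjusted p = 0.000741). In the insulin pathway 7 of 24 genes rose and 6 fell, against 16.1% and 16.5% of all genes. The insulin receptor substrate gene Irs1 (-0.93 ± 0.13, edgeR adjusted p = 0.00313), Hk2 (-0.52) and Foxo1 (-0.56) fell beside Slc2a4 (-1.05). Hk1 (0.27), Akt1 (0.37) and Ptpn1 (0.42), a phosphatase that acts against insulin signalling, rose, and the receptor gene Insr did not pass (-0.15). Leaving out any library but high-fat replicate 3 took the higher count of the insulin list to 4. With all 24 libraries fitted it was 1 higher and 0 lower, and with the covariates in 18 libraries 0 higher and 2 lower.

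Genes of mitochondrial respiration were lower by a small and even amount. All 46 subunit genes of oxidative phosphorylation tested were lower, with a median of -0.44 and a range of -0.68 to -0.22. Ndufb9, a subunit of complex I, had 47.5, 41.7 and 48.6 normalised CPM in the high-fat libraries and 72.5, 74.6 and 73.7 in the standard-diet libraries (-0.68 ± 0.07, edgeR adjusted p = 0.00117). High-fat replicate 2 was the lowest library, and the standard-diet libraries lay close together. Of 22 citrate cycle genes 20 fell (median -0.42), for example Fh1 (-0.42) and the pyruvate dehydrogenase gene Pdhb (-0.68). Of 22 fatty acid oxidation genes 16 fell (median -0.38), for example Acadm (-0.53) and Ehhadh (-0.81). The gatekeeper Cpt1a, in the form found in liver, macrophages and fat, was the exception and had 76.8, 79.2 and 69.3 normalised CPM on the high-fat diet and 52.05, 50.7 and 47.4 on the standard diet (0.58 ± 0.07, edgeR adjusted p = 0.0018).

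Genes that break down branched-chain amino acids were lower. Of 20 genes 18 fell, and the median was -0.60, against -0.44 for oxidative phosphorylation and -0.54 for the adipocyte list. The difference between these medians was not tested. Ivd, the isovaleryl-CoA dehydrogenase, had 85.01, 68.2 and 100.4 normalised CPM in the high-fat libraries and 162, 167 and 199 in the standard-diet libraries (-1.06 ± 0.15, edgeR adjusted p = 0.00294). The dehydrogenase subunit Bckdha (-0.77) and Aldh6a1 (-0.90) fell too, while Ppm1k, the phosphatase that switches the dehydrogenase on, did not pass (0.03). Nmnat3, which makes NAD in mitochondria and was among the genes with the smallest p, had 6.62, 5.59 and 6.51 normalised CPM on the high-fat diet and 20.2, 22.9 and 22.8 on the standard diet (-1.82 ± 0.09, edgeR adjusted p = 0.000291).

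Tst encodes the mitochondrial sulfurtransferase also called rhodanese, which acts in the disposal of hydrogen sulfide, and is the gene this study of fat is known for. It had 6.63, 5.88 and 8.80 normalised CPM in the high-fat libraries and 12.98, 13.7 and 12.3 in the standard-diet libraries, without overlap (-0.87 ± 0.15, edgeR adjusted p = 0.00565). The same change of -0.87 did not pass in the fit of all 24 libraries (edgeR adjusted p = 0.431) or of 18 (edgeR adjusted p = 0.189). Of 12 genes of sulfide oxidation and sulfur amino acid metabolism 9 fell and none rose. They include Cdo1, the cysteine dioxygenase (-1.09 ± 0.11, edgeR adjusted p = 0.00129), Mpst, the relative of Tst (-0.46 ± 0.05, edgeR adjusted p = 0.00178), the sulfite oxidase gene Suox (-0.87) and the sulfide oxidoreductase gene Sqor (-0.57). Ethe1, the persulfide dioxygenase, did not pass (-0.02).

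**Figure D4:**
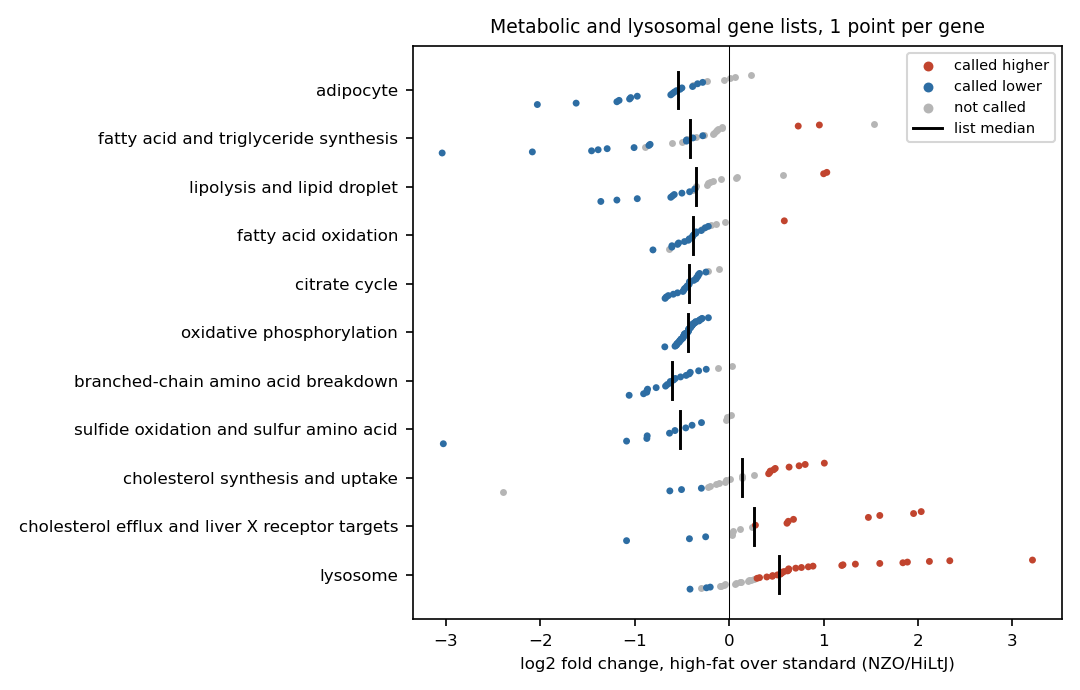
Log2 fold change, high-fat over standard, of each tested member of 11 gene lists in NZO/HiLtJ, with called genes in red (higher) or blue (lower), genes not called in grey and the list median as a black bar. All oxidative phosphorylation genes lie between -0.68 and -0.22, while the lysosome list reaches 3.21.

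These metabolic calls depended on which libraries set the spread. The 8 lists of adipocyte, lipid, mitochondrial, amino acid and sulfur genes held 185 genes tested, of which 139 were lower and 5 higher. The 18-library fit called 91 lower, and with the liver and kidney covariates 83. Under these covariates 33 oxidative phosphorylation and 16 branched-chain amino acid genes were lower, whereas 6 adipocyte genes, 1 synthesis gene and 1 lipolysis gene were. With all 24 libraries fitted, 1 was lower, with 19 lower at an unadjusted p below 0.05. For the 82 genes of the pan-macrophage, lipid-associated macrophage and lysosome lists, 61 were higher in the 6-library fit, 60 in the 18-library fit, 36 with its covariates and 38 in the 24-library fit. The covariates left 14 pan-macrophage, 14 lipid-associated and 11 lysosome genes higher and 8 resident macrophage genes lower. They left 11 proliferation, 10 remodelling, 4 receptor, 3 mast cell, 2 immediate early and 1 chemokine gene called higher. Among the other strains the adipocyte list summed to as little as 426 CPM, in 1 of the 6 libraries left out of the 18, and the median was 42124 CPM.

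Brown and beige fat genes gave no common direction. Of 16 tested, 5 fell and 1 rose, against 16.5% and 16.1% of all genes. Of those that fell, 2, Slc27a2 and Cpn2, were among the genes set apart. Leaving out any library but standard-diet replicate 3 took the lower count to 2 or 3. Ucp1, the uncoupling protein gene, had 13.2, 10.01 and 13.7 normalised CPM in the high-fat libraries and 6.58, 16.2 and 5.08 in the standard-diet libraries (0.40 ± 0.41, edgeR adjusted p = 0.49). Tmem26, a proposed beige marker, had 10.2, 13.1 and 8.86 normalised CPM on the high-fat diet and 1.999, 1.24 and 1.64 on the standard diet (2.73 ± 0.22, edgeR adjusted p = 0.000782).

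Most matrix remodelling genes rose, while few matrix proteins changed. Of 30 remodelling genes 19 rose and 3 fell, and of 32 matrix genes 6 rose, a share near that of all genes, and 3 fell. Without high-fat replicate 3, 10 matrix genes rose, and without high-fat replicate 1, 5 fell. Adam8, a membrane protease of myeloid cells, had 355, 445 and 309 normalised CPM in the high-fat libraries and 55.7, 37.3 and 47.1 in the standard-diet libraries (2.98 ± 0.19, edgeR adjusted p = 0.000521). The aggrecanase gene Adamts4 (1.29), the inhibitor gene Timp1 (1.33), the stromelysin gene Mmp3 (1.55) and Mmp14 (1.00) rose. Timp4, an inhibitor gene expressed in fat, had 35.98, 35.2 and 73.98 normalised CPM on the high-fat diet and 126, 149 and 114 on the standard diet (-1.42 ± 0.29, edgeR adjusted p = 0.0107). Col1a1 (-0.66 ± 0.12, edgeR adjusted p = 0.00635) and Sparc (-0.53) fell, but were at 0.48 and 0.14 with the liver and kidney covariates in 18 libraries and did not pass there. Col12a1 (1.23), Lum (1.03) and Thbs1 (0.96) rose, and Col3a1 and Col6a3 did not pass (0.19 and 0.12). The progenitor receptor genes Pdgfra (1.09 ± 0.12, edgeR adjusted p = 0.00146) and Pdgfrb (0.68 ± 0.05, edgeR adjusted p = 0.000736) rose. Vessel genes passed about as often as all genes, with 4 of 16 lower and 1 higher, against 16.5% and 16.1%, for example Gpihbp1, which anchors lipoprotein lipase on capillaries (-0.69 ± 0.11, edgeR adjusted p = 0.0051), and Pecam1 at 0.02 without passing. No vessel gene was higher without any 1 library but standard-diet replicate 2. In the 24-library fit 6 remodelling genes were higher and no matrix gene passed.

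Cell division genes were higher. Of 26 proliferation genes 23 rose and none fell, with a median of 0.91. Mki67 had 21.8, 22.1 and 17.2 normalised CPM in the high-fat libraries and 9.59, 8.64 and 7.47 in the standard-diet libraries (1.25 ± 0.13, edgeR adjusted p = 0.00135). Cdkn2a, which encodes cell cycle inhibitors linked to senescence, had 7.05, 8.20 and 8.28 normalised CPM on the high-fat diet and 1.72, 1.08 and 1.32 on the standard diet (2.52 ± 0.18, edgeR adjusted p = 0.000722), while Cdkn1a did not pass (0.06). Of 22 immediate early genes, which answer stress and handling within minutes, 14 rose, for example Atf3 (2.63 ± 0.20, edgeR adjusted p = 0.000722), Egr2 (1.96) and Fos (1.94). Without high-fat replicate 2 the proliferation count was 13 and the immediate early count 8. The proliferation count was 14 without standard-diet replicate 3 or high-fat replicate 1, and the immediate early count 9 without standard-diet replicate 2. Over all 24 libraries they were 1 and 3.

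Stress and hypoxia lists held changes in both directions, against 16.1% of all genes higher and 16.5% lower. Stress genes that fell and antioxidant genes that rose were no more frequent than that. Of 23 genes of the unfolded protein and amino acid response 8 rose and 3 fell, with the chaperone gene Hspa5 at 0.45 and the asparagine synthetase gene Asns at -0.82. Of 24 antioxidant genes 13 fell, led by the glutathione transferase gene Gsta3 (-1.47 ± 0.12, edgeR adjusted p = 0.000741), with Sod1 at -0.68, and 3 rose, among them the regulator Nfe2l2 (0.37) and its target Srxn1 (0.55). Of 18 hypoxia genes 4 rose, including Hif1a (0.35) and Car9 (1.15), and 5 fell, including Vegfa (-0.58 ± 0.11, edgeR adjusted p = 0.00713) and Ldha (-0.41). Single libraries moved these counts, with 3 to 5 stress genes higher without standard-diet replicate 1 or 3 or high-fat replicate 1 or 2, 1 stress gene lower without standard-diet replicate 2, 8 antioxidant genes lower without standard-diet or high-fat replicate 2, 5 higher without high-fat replicate 3, and 3 hypoxia genes lower without high-fat replicate 1. The 24-library fit called 2 genes of these 3 lists, 1 in the first and 1 in the second, both higher.

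More clock genes fell than rose. Of 19 tested, 8 fell, against 16.5% of all genes, and 3 rose, a share near the 16.1% of all genes. Dbp, an output factor of the clock, had 23.5, 15.4 and 22.9 normalised CPM in the high-fat libraries and 50.5, 48.8 and 66.8 in the standard-diet libraries (-1.43 ± 0.19, edgeR adjusted p = 0.00261). Nr1d1, which encodes the repressor REV-ERB alpha, had 39.1, 33.01 and 42.4 normalised CPM on the high-fat diet and 61.1, 82.3 and 81.4 on the standard diet (-0.97 ± 0.14, edgeR adjusted p = 0.00308). Hlf (-1.51), Per2 (-0.92) and Tef (-0.89) fell beside them, while Arntl, which encodes BMAL1 (0.55 ± 0.10, edgeR adjusted p = 0.00783), and Npas2 (1.12 ± 0.22, edgeR adjusted p = 0.00892) rose. Without an hour of collection in the labels, the diet and the time of day cannot be told apart for these genes. No clock gene passed in the 24-library fit, against 5 lower and 1 higher in the 18-library fit.

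The largest rises included genes outside any list. Gpr50, which encodes a relative of the melatonin receptors, had 11.4, 17.3 and 10.6 normalised CPM in the high-fat libraries and 0.389, 0.0122 and 0.337 in the standard-diet libraries (5.76 ± 0.61, edgeR adjusted p = 0.0014). Fat3, an atypical cadherin gene, had 13.4, 16.5 and 11.2 normalised CPM on the high-fat diet and 0.472, 0.428 and 0.579 on the standard diet (4.79 ± 0.20, edgeR adjusted p = 0.000202). Zranb3, which encodes a helicase that remodels stalled replication forks, had 117, 149.9 and 94.3 normalised CPM in the high-fat libraries and 9.45, 9.53 and 8.58 in the standard-diet libraries (3.71 ± 0.18, edgeR adjusted p = 0.000288). In Zranb3 and Fat3 the standard-diet libraries lay close together, and in all 3 genes high-fat replicate 2 was the highest. Further rises were in the myosin gene Myh15 (4.12), the serotonin receptor gene Htr2b (4.07), the small heat shock gene Hspb7 (3.66), Sel1l3 (3.57), the membrane protein gene Ptchd1 (3.55), Pianp (3.25) and the signalling adaptor gene Stap1 (3.22). With the smallest p came the phosphoglucomutase relative Pgm5 (1.89), the adhesion gene Cadm1 (2.85), the potassium channel gene Kcnj2 (2.41), the kinase gene Cdk18 (2.72) and the leukocyte receptor genes Cd72 (2.28) and Cd300ld (2.83). Hspb7, Sel1l3 and Pgm5 did not pass in the 24-library fit. With the liver and kidney covariates in 18 libraries Gpr50 was at 2.90 (edgeR adjusted p = 0.511) and Htr2b at 2.34 (edgeR adjusted p = 0.464), and neither passed, while Zranb3 (4.09, edgeR adjusted p = 3.79e-05) and Fat3 (3.88, edgeR adjusted p = 0.0129) did.

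The largest falls outside the set-apart genes mixed immune and metabolic genes. Pla2g2d, a secreted phospholipase gene of myeloid cells, had 2.78, 1.78 and 4.38 normalised CPM in the high-fat libraries and 27.3, 13.8 and 33.2 in the standard-diet libraries (-3.06 ± 0.42, edgeR adjusted p = 0.00282). Rnase2a, of the eosinophil ribonuclease family, had -2.74, and its family has close relatives. Acta1, the actin gene of skeletal muscle, had 6.17, 6.71 and 8.18 normalised CPM on the high-fat diet and 41.9, 47.6 and 35.2 on the standard diet (-2.57 ± 0.15, edgeR adjusted p = 0.000425). The same change did not pass with 24 libraries (edgeR adjusted p = 0.432) or 18 (edgeR adjusted p = 0.195), and with the covariates Acta1 was at 2.22 (edgeR adjusted p = 0.584). Of 16 muscle genes 5 fell and 3 rose, against 16.5% and 16.1% of all genes, so the share that rose was near that of all genes. The called members other than Acta1 were at lower levels or changed by less, for example Myl1 (-0.60) and Tnnt3 (1.11). Ckm and Ttn had 0.18 and 0.08 and did not pass. Without standard-diet replicate 2 or 3 or high-fat replicate 1 the muscle list counted 3 lower and 1 higher, and no muscle gene passed in the 24-library or the 18-library fit. Cbs, the cystathionine synthase gene, had 1.43, 1.47 and 2.61 normalised CPM in the high-fat libraries and 15.1, 21.6 and 8.09 in the standard-diet libraries (-3.02 ± 0.41, edgeR adjusted p = 0.00269). Ttpa, which encodes the vitamin E transfer protein (-2.49), Sec14l4 (-3.03) and the angiotensinogen gene Agt (-2.77) are, like Cbs, known from liver. The standard-diet libraries of Cbs, Ttpa, Sec14l4 and Stard10 had the order of the liver set, and those of Agt the order of the kidney set. With the liver and kidney covariates Cbs was at -2.27 (edgeR adjusted p = 0.0389) and Agt at -2.81 (edgeR adjusted p = 0.00812), while Ttpa was at -1.67 (edgeR adjusted p = 0.214) and Sec14l4 at -1.83 (edgeR adjusted p = 0.127). Stard10, a lipid transfer gene (-2.17), also lost its call there.

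Whether these changes differ from those of the other strains was tested as the NZO/HiLtJ diet effect minus the mean diet effect of C57BL/6J, CAST/EiJ and WSB/EiJ in all 24 libraries. This difference passed for 242 genes above and 91 below 0, which is 1.21% and 0.454% of 20035 tested. Without standard-diet replicate 2 of NZO/HiLtJ 96 genes passed, without high-fat replicate 2 90 and without high-fat replicate 1 173. Of the 242, 239 were called higher within NZO/HiLtJ, and of the 91, 86 were called lower, 46 of them among the genes set apart. Members of the pan-macrophage list passed in 9 of 19 cases, of the lysosome list in 11 of 44 and of the lipid-associated macrophage list in 7 of 26, all above 0. Of the 185 metabolic genes 1 passed, Cbs, with 4 at an unadjusted p below 0.05. No difference from the other strains was thus shown for the adipocyte, lipid and mitochondrial genes as measured here. The mean of the other strains includes CAST/EiJ high-fat libraries with Adipoq as low as 4.75 CPM. It also includes WSB/EiJ high-fat libraries with Epcam at 11.9 to 58.5 CPM. How these libraries affect the result for metabolic genes was not tested.

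The macrophage genes Itgax and Msr1 differed from the other strains. For Itgax the diet effect was 3.42 in NZO/HiLtJ, against 1.17 in C57BL/6J, 0.05 in CAST/EiJ and 0.75 in WSB/EiJ, and the difference from their mean was 2.77 ± 0.52 (edgeR adjusted p = 0.00889). For Msr1 the difference was 2.37 ± 0.37 (edgeR adjusted p = 0.0022). The leukocyte genes Cd72 (2.04 ± 0.32, edgeR adjusted p = 0.00235), Cd300ld (2.78 ± 0.38, edgeR adjusted p = 0.000611) and Stap1 (2.97 ± 0.34, edgeR adjusted p = 0.000194), which are in no list, passed as well. Gpnmb did not pass (3.15 ± 0.82, edgeR adjusted p = 0.0608), with a diet effect of 2.08 in WSB/EiJ. Of the resident macrophage list 2 members, Cbr2 and Cd209f, passed below 0. Cd209f had -3.82 in NZO/HiLtJ, against 0.01 in C57BL/6J, -0.78 in CAST/EiJ and -0.71 in WSB/EiJ (-3.33 ± 0.79, edgeR adjusted p = 0.0389), Cd209g had a difference of -3.41 ± 0.73 (edgeR adjusted p = 0.0215), and Cd209b had -3.88 ± 1.11 and did not pass (edgeR adjusted p = 0.0916). Without the 6 Epcam libraries, where the mean is over C57BL/6J and CAST/EiJ, 12 resident macrophage genes passed below 0.

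Zranb3, which is in no list, was among the genes with the smallest p of this test. Its diet effect was 3.71 in NZO/HiLtJ, against 0.30 in C57BL/6J, -0.01 in CAST/EiJ and 0.29 in WSB/EiJ (3.51 ± 0.29, edgeR adjusted p = 3.11e-06). Gpr50 had 5.73 in NZO/HiLtJ, against -0.80 in C57BL/6J, -0.80 in CAST/EiJ and -1.80 in WSB/EiJ (6.87 ± 1.58, edgeR adjusted p = 0.0339). Cbs had -3.03 in NZO/HiLtJ, against -0.12 in C57BL/6J, 0.46 in CAST/EiJ and 0.07 in WSB/EiJ (-3.16 ± 0.78, edgeR adjusted p = 0.0475), and Ttpa a difference of -2.59 ± 0.47 (edgeR adjusted p = 0.00733). The standard-diet NZO/HiLtJ libraries of Cbs and Ttpa had the order of the liver set. With the stricter covariates in 18 libraries the diet effect within NZO/HiLtJ did not pass for Gpr50 (2.90, edgeR adjusted p = 0.511) or Ttpa (-1.67, edgeR adjusted p = 0.214). Cbs passed there (-2.27, edgeR adjusted p = 0.0389). The difference between strains was not tested with covariates. The comparison strains share the 24-library spread with NZO/HiLtJ, and their own diet effects were not called here.

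**Figure D5:**
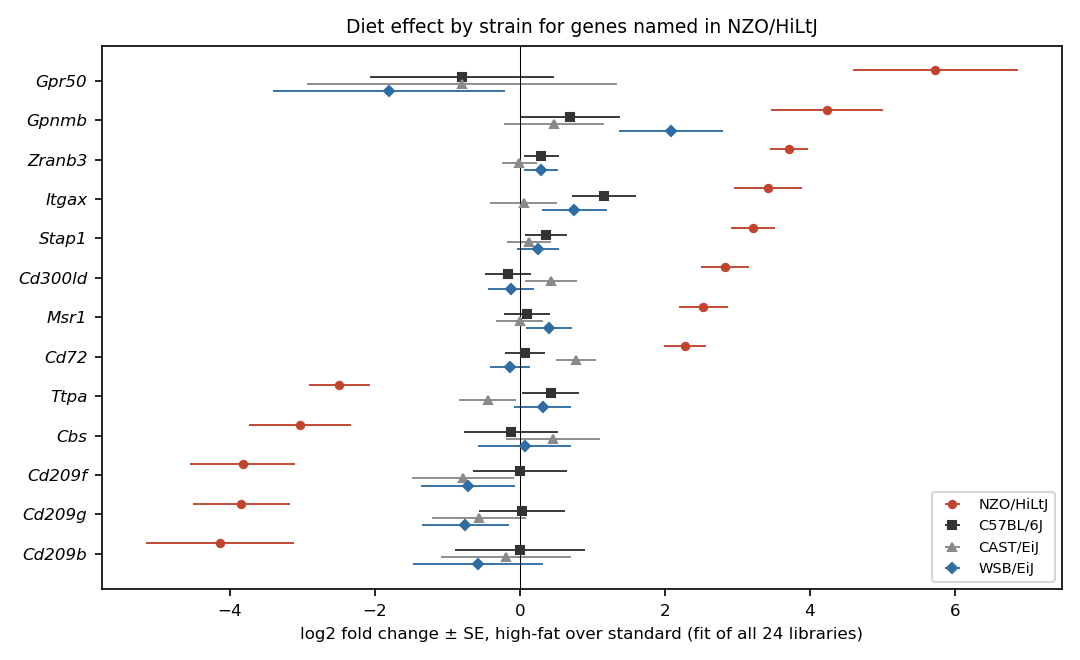
Diet effect as log2 fold change ± SE, high-fat over standard, in NZO/HiLtJ (red) and in the 3 other strains for 13 genes, from the fit of all 24 libraries. NZO/HiLtJ lies above or below all 3 other strains in each gene shown, while the difference itself did not pass for Gpnmb and Cd209b.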

How the data were processed

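Poly(A) RNA of inguinal fat from 24 female mice was sequenced by the authors, and they deposited expected counts per gene, given as whole numbers for 37991 Ensembl identifiers. Per the submitters' processing notes, RSEM 1.2.1, Bowtie 0.12.8 and CASAVA 1.8.0 were used with builds NCBIM37 and mm9, and the notes give neither role nor order. A deposited upper-quartile normalised table was not used. Symbols were found for 86.64% of identifiers. Strand handling is not given in the sources used here, and reads of close relatives may be split among genes.

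Counts were tested with edgeR 4.0.16 (R 4.3.3, limma 3.58.1) by the quasi-likelihood F test with 4 residual degrees of freedom, after its default filter on low counts, which removed 19728 identifiers, and scaling by the trimmed mean of M-values. Standard errors are the log2 fold change divided by the square root of F. Summed levels of gene lists are CPM without that scaling. DESeq2 1.42.0 and limma-voom were alternatives, beside other scalings, filters, sets of libraries and leaving out each library. Counts were also simulated for the 6-library comparison (18088 genes). Of genes changed by -2, -1, 1 and 2 on the log2 scale, 43 of 49, 37 of 50, 31 of 50 and 47 of 49 were called. The same fit called 17 unchanged genes. Each gene was simulated separately, without liver or kidney transcripts that vary together among libraries. Library totals in the series lay between 47651641 and 84009032 counts.

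The genes named are the 15 highest, the 15 lowest not set apart, the 8 lowest set apart and the 15 with the smallest p, among called genes without overlap and with a mean of at least 5 normalised CPM in the higher group, together with members of the lists and Tst, and some of these are not reported here. The lists held 1068 entries with a matched identifier, of which 52 were too low to test, and 956 different genes were tested. The gene lists, the genes on them and the rules were chosen with earlier results of these data known, whereas the 6 libraries were chosen by their labels. Replicate numbers follow deposit order only, and no label says more of how the mice of a group were housed or processed, so p-values measure the spread between these mice.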

Additional observations from a re-analysis of the deposited data

Results flagged for a closer look

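The diet effect in NZO/HiLtJ differed from the mean diet effect of the other 3 strains, by a test of the difference itself, for 333 genes in the fit of all 24 libraries. Among the genes named, the difference in log2 fold change was above 0 for Gpr50 (6.87), Zranb3 (3.51), Stap1 (2.97), Cd300ld (2.78), Itgax (2.77), Msr1 (2.37) and Cd72 (2.04). It was below 0 for Cd209g (-3.41), Cd209f (-3.33), Cbs (-3.16) and Ttpa (-2.59). Without standard-diet replicate 2 of NZO/HiLtJ 96 genes passed, and without high-fat replicate 2 90 did. The standard-diet NZO/HiLtJ libraries of Cbs and Ttpa had the order of the liver set. With the stricter liver and kidney covariates in 18 libraries the diet effect within NZO/HiLtJ did not pass for Gpr50 or Ttpa. The difference between strains was not tested with covariates. No group had more than 3 mice, so single libraries were not tested for standing apart.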

How the results depend on the processing

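No paired analysis was possible because the replicate numbers follow deposit order and the labels tie no mouse of one diet to a mouse of the other. The counts of 2948 higher and 3019 lower genes became 591 and 388 in the fit of all 24 libraries and 2127 and 1985 in that of 18. With the sums of the liver and kidney lists as covariates in all 24 libraries, 0 genes passed by edgeR, with 613 at an unadjusted p below 0.05, and with the stricter liver and kidney sets in 18 libraries, chosen after seeing the data, 800 were higher and 601 lower. Leaving out each NZO/HiLtJ library gave 1894 to 2780 higher and 1759 to 2777 lower. RLE and upper-quartile scaling, the filters, DESeq2, limma-voom and plain library totals kept both counts within 1.5 times, while upper-quartile scaling moved the split to 2651 higher and 3409 lower and library totals to 3278 higher and 2614 lower. Summed over the lists, counted genes went to 146 in the fit of all 24 libraries, to 0 with its covariates and to 199 with the stricter ones, against 573 as reported. The count of genes whose diet effect differed from the other strains was 1232 against the mean of C57BL/6J and CAST/EiJ in 18 libraries and 1136 against C57BL/6J alone, and 90 to 227 with each NZO/HiLtJ library left out. Setting genes apart at a ratio of 2 took 454 and at 5 took 254.

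Of 230 called genes named, 207 kept the call in every setting on the same 6 libraries, 193 with any library left out, 187 in 18 libraries, 78 in all 24 and 98 with the stricter covariates. None of them changed sign except under covariates. The fits of 18 and 24 libraries without covariates take the fold change from the same 6 libraries, so a change of sign was hardly possible there. With the covariates in all 24 libraries, log2 fold changes turned for A1bg (0.36), Abcg1 (-0.058), Acly (0.39), Acsl1 (0.48), Acta1 (0.18), Acta2 (0.47), Alb (0.71), Apoe (-0.75), Arntl (-0.28), Atp6v1a (-0.011), Casp1 (-0.11), Ccl2 (-0.43), Ccr2 (-0.30), Cd36 (-0.18), Cd3g (-0.039), Cdkn1a (-1.41), Cela1 (-0.21), Ciita (-0.23), Col6a3 (-0.17), Cpn2 (2.74), Csf3r (-0.069), Ctsl (-0.42), Cx3cr1 (-0.26), Cyp2c40 (0.20), Dpp4 (0.37), Ebp (0.19), Ehhadh (0.36), Elovl6 (0.070), Ethe1 (0.69), Fcamr (0.34), H2-Aa (-0.42), H2-Ab1 (-0.51), H2-Eb1 (-0.48), Hdc (-0.22), Hif1a (-0.067), Hk1 (-0.36), Igkv6-20 (-1.54), Il1b (-1.80), Insr (0.22), Kit (-0.12), Lep (-1.79), Mest (-2.60), Mki67 (-0.13), Mlxipl (0.32), Mmp12 (-0.53), Pdhb (0.30), Pecam1 (-0.44), Pf4 (-0.034), Pnpla2 (0.11), Sod1 (0.11), Tm7sf2 (0.20), Tnf (-1.76), Trarg1 (-0.21), Tst (0.65), Ttr (0.75). With the stricter covariates in 18 libraries they turned for Acta1 (2.22), Acta2 (0.033), Ccl12 (0.72), Cd3g (-0.82), Col1a1 (0.48), Cpn2 (1.06), Ethe1 (0.17), Hdc (-0.41), Igkv6-20 (-3.53), Il1b (-0.020), Kit (-0.16), Myl1 (1.23), Pecam1 (-0.029), Ppm1k (-0.26), Sema3c (0.033), Sfrp5 (1.37), Slc34a1 (0.95), Sparc (0.14), Ttr (0.49). None of these turned values passed, and the cause was not tested. Genes that were not called turned under upper-quartile scaling for Cd3e (-0.0066), Lep (-0.020), Mest (-0.0059), Pecam1 (-0.017), under limma-voom for Cd3d (0.30), Ttn (-0.018) and on library totals for Cd3d (0.019), Ethe1 (0.013). With single libraries left out, signs turned only for genes that were not called, whose ranges were Acsl1 (-0.11 to 0.024), Apoe (-0.050 to 0.095), Cd3d (-0.33 to 0.92), Cd3e (-0.18 to 0.13), Cd3g (-0.11 to 0.55), Ckm (-0.14 to 0.91), Col6a3 (-0.0015 to 0.22), Ctsl (-0.0029 to 0.16), Ethe1 (-0.15 to 0.11), Flt3 (-0.17 to 0.15), Lep (-0.058 to 0.076), Mest (-0.067 to 0.13), Pecam1 (-0.060 to 0.060), Ppm1k (-0.042 to 0.11), Ttn (-0.24 to 0.36).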

Other observations

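Dendritic cell genes passed about as often as all genes (16.1% higher and 16.5% lower). Of 12 dendritic cell genes tested, Itgax (3.42) and the activation marker gene Cd83 (1.83 ± 0.19, edgeR adjusted p = 0.00131) rose, while Cd209a (-1.89 ± 0.20, edgeR adjusted p = 0.00132), a relative of Cd209b known from dendritic cells, and Siglech (-0.89 ± 0.21, edgeR adjusted p = 0.0176), a marker gene of plasmacytoid cells, fell. The lineage genes Flt3 and Zbtb46 did not pass (-0.05 and -0.17). Of 14 monocyte and neutrophil genes 2 rose, the monocyte receptor gene Ccr2 (0.66 ± 0.16, edgeR adjusted p = 0.0181) and Csf3r (0.67), a share below that of all genes, and the count was 4 without standard-diet replicate 1 and 0 without high-fat replicate 2. Of 9 eosinophil and type 2 lymphoid genes 2 rose, the interleukin-33 receptor gene Il1rl1 (1.66 ± 0.37, edgeR adjusted p = 0.0152) and the growth factor gene Areg, which was at 0.351, 0.661 and 0.173 normalised CPM in the high-fat libraries and 0.0278, 0.0367 and 0 in the standard-diet libraries. That count was 4 without standard-diet replicate 1 and 1 without high-fat replicate 2.

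In the stroma, 4 of 16 progenitor genes rose and 3 fell, against 16.1% and 16.5% of all genes. Pdgfra, Pdgfrb and Icam1 (0.73 ± 0.11, edgeR adjusted p = 0.00351), which marks committed preadipocytes in mice, rose, while Cd55 (-0.61 ± 0.11, edgeR adjusted p = 0.00713), Sema3c (-0.42) and Dpp4 (-0.42 ± 0.13, edgeR adjusted p = 0.0463), which mark early progenitors in mice, fell. The lower count was 1 without standard-diet replicate 1 or 2 or high-fat replicate 2. The other 9 progenitor genes were not called. With the stricter liver and kidney covariates in 18 libraries 2 were higher and 0 lower, and Sema3c changed sign. A shift between progenitor states was not tested. Of 16 arrest genes 5 rose, among them Cdkn2b (0.70 ± 0.17, edgeR adjusted p = 0.0183), and Cdkn2c, an inhibitor gene that is high in fat, had 72.02, 55.8 and 76.4 normalised CPM in the high-fat libraries and 123, 120.4 and 126 in the standard-diet libraries (-0.85 ± 0.11, edgeR adjusted p = 0.00256). The higher count was 3 without high-fat replicate 1 or 2.

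Markers of other tissues of the pad were few. Of 10 smooth muscle genes 4 fell, for example Acta2 (-0.65 ± 0.15, edgeR adjusted p = 0.015), with counts of 0 without high-fat replicate 1, 1 without high-fat replicate 2, 2 without standard-diet replicate 2 or 3 and 7 without high-fat replicate 3, and none passed in the 24-library or the 18-library fit. Of the 6 lymph node genes tested, Fcamr (-1.65) and Il7 (-0.51) fell, and 1 did without any library but standard-diet replicate 2. Of 8 nerve genes Syp fell (-0.46), and of 9 epithelial genes Epcam fell (-2.19), with 0.0421, 0.0275 and 0.101 normalised CPM in the high-fat libraries and 0.167, 0.379 and 0.243 in the standard-diet libraries. Both were shares below the 16.5% of all genes that fell. Neither list had a lower gene without standard-diet replicate 2 or high-fat replicate 1 or 2, while the nerve list had 3 without standard-diet replicate 3 and the epithelial list 2 without high-fat replicate 3. None of 8 mesothelial genes passed by edgeR, none was at an unadjusted p below 0.05, and DESeq2 and limma-voom called none. The pancreas list kept 1 gene to test, Cela1 (0.24), which did not pass.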
